A study of Mus musculus with 3 samples.

Results

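The integrated stress response (ISR) was examined through 10 of the 24421 genes counted by RNA-Seq in mouse embryonic stem (ES) cells depleted of NUP153. They were chosen by name as Atf4 and genes that its protein, ATF4, is known to activate: Ddit3, Trib3, Chac1, Asns, Sesn2, Psat1, Phgdh, Slc7a11 and Ddit4. All 10 were found by symbol, and all 10 averaged 10 reads or more per library, as did 16670 genes in all. NUP153 is a nucleoporin of the nuclear pore basket, and the study asked how its loss alters transcription. Undifferentiated EL 16.7 cells, a female line of the background F2:129S1/CastEiJx 129S1, were grown with LIF on γ-irradiated embryonic fibroblasts from Tg(DR4)1Jae/J mice. Lentivirus carried a scramble shRNA (control) or either of a pair of NUP153 shRNAs (KD-1 and KD-2), and cells of every group were selected with 2 μg/ml puromycin for 2 days. Each group is 1 library of total RNA from a transduced culture, not from a clone, and the feeder cells were not stated to be removed.

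The ISR begins when one of the eIF2 kinases phosphorylates eIF2 alpha, which lowers protein synthesis overall while the mRNA of Atf4 is translated better. ATF4 then activates genes for amino acid synthesis and uptake, for the charging of tRNA and, under lasting stress, for growth arrest and cell death. Because ATF4 is set largely at translation, its mRNA alone does not give its activity, and no protein was measured here. In dividing cells ATF4 also helps to keep up the supply of amino acids.

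With 1 library per group there is no replicate check of any difference, and no p-value is given for KD-1 or KD-2 alone. Reads were scaled by upper-quartile normalization, and a gene with a fold change above 1.5 is called higher or lower. Each 95% counting interval, written after a log2 fold change, covers the counting of reads and not the spread between cultures. Depth was 72344726 reads on genes in control, 85258834 under KD-1 and 69839336 under KD-2. Nup153 had 27870 reads in control, 16451 under KD-1 and 11126 under KD-2, which are log2 fold changes of -0.99 (-1.02 to -0.96) and -1.43 (-1.46 to -1.40). The ES cell label was met by high reads of Pou5f1 and Nanog, with 35405 and 44622 in control. Fibroblast genes were present as well, and their levels differed between libraries. The 12 fibroblast markers examined summed to 1410 RPM (reads per 1000000 reads on genes) in control, 678 under KD-1 and 2815 under KD-2, with none at 0 reads, and the 12 pluripotency markers summed to 4997, 5432 and 4126. In bulk RNA, fewer cells of a type and less RNA per cell cannot be told apart.

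In KD-2, Ddit4, Ddit3 and Sesn2 were higher than in control and Psat1 and Asns were lower, each by more than 1.5-fold, while Atf4 itself was at 1.01-fold. In KD-1, 0 of the 10 genes passed 1.5-fold in either direction, against a background of 14.2% of the genes tested (8.63% higher and 5.62% lower). In KD-2 the background was 27.3%, with 17.1% called higher and 10.2% called lower, beside 3 and 2 of the 10 members. With 10 genes, 5 calls are not far from such a background, and the account below is of which genes stood on which side. The median log2 fold change of the 10 genes was -0.10 in KD-1, where all genes tested had 0.02, and -0.05 in KD-2, where all genes had -0.02.

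**Figure D1:**
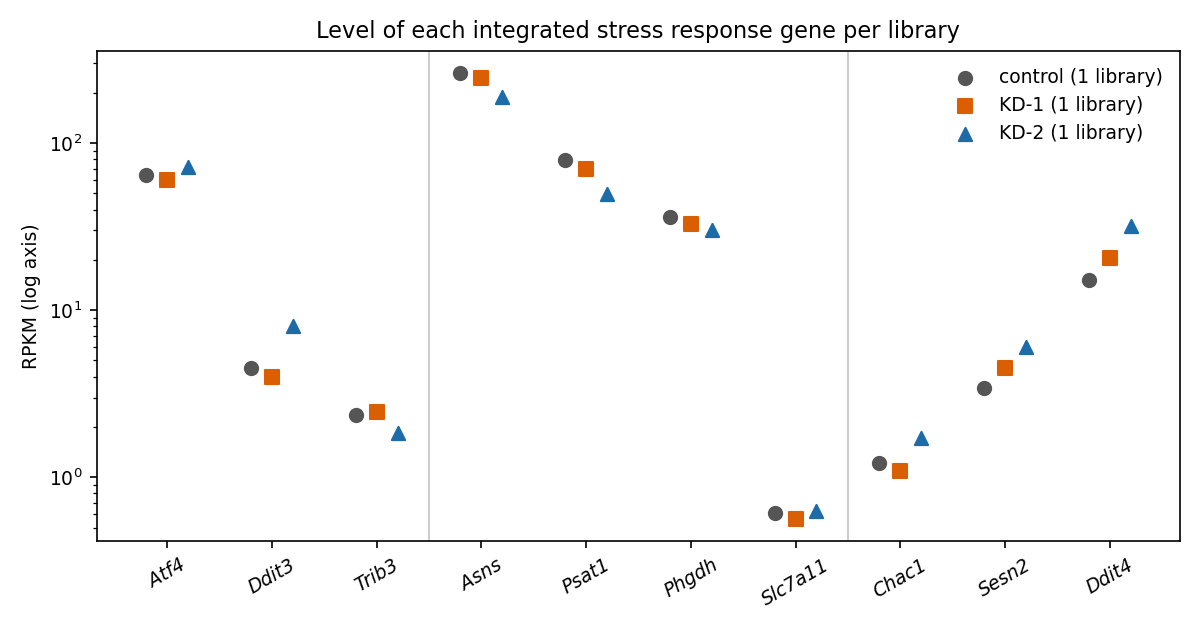
RPKM (reads per kilobase of exon, scaled to the reads on genes; log axis) of the 10 genes in the control, KD-1 and KD-2 libraries, 1 point per library, with transcription factors and Trib3 on the left, amino acid supply in the middle and Chac1, Sesn2 and Ddit4 on the right. Asns has the highest level in every library, and Slc7a11 the lowest, from 0.566 to 0.633 RPKM.

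Per length of exon, levels of the 10 genes were spread widely. Asns was at 262 RPKM in control, 243 under KD-1 and 188 under KD-2, and was the highest of the 10 in each library. Psat1 followed at 78.6 RPKM in control and Atf4 at 64.2, but in KD-2 this order was exchanged, with 49.4 for Psat1 and 72.3 for Atf4. Phgdh and Ddit4 also exchanged places, from 35.8 and 15.2 RPKM in control to 30.2 and 32.0 in KD-2. Ddit3, Sesn2, Trib3 and Chac1 lay between 1.22 and 4.53 RPKM in control. Slc7a11 was last at 0.613 RPKM, a value that depends on an exon length of 13922 bases in the annotation. Asns and Psat1 together held most reads of the group, with 52.9% and 23.6% of all reads on the 10 genes in KD-1, and 47.7% and 19.5% in KD-2. RPKM is scaled to the reads on all genes, so that small differences between libraries differ from those after upper-quartile scaling.

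Atf4 encodes the bZIP transcription factor at the center of the response. It lies on chromosome 15 from 80255184 to 80257541 of GRCm38. Atf4 had 10944 reads in control, 12062 under KD-1 and 11909 under KD-2, or 11851, 11148 and 11974 scaled reads. The log2 fold change was -0.09 under KD-1 (-0.13 to -0.05) and 0.01 under KD-2 (-0.02 to 0.05). In KD-2, 52.8% of all genes tested lay below Atf4, and with library totals it was at 0.17.

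Ddit3 encodes CHOP, a bZIP factor that ATF4 induces and that takes part in cell death under lasting stress. It lies on chromosome 10 from 127290774 to 127296288. Ddit3 had 561 reads in control, 584 under KD-1 and 965 under KD-2. It was called higher in KD-2, at a log2 fold change of 0.68 (0.52 to 0.83), and was at -0.17 in KD-1 (-0.34 to -0.00084). Between the knockdowns, Ddit3 was 1.80-fold lower in KD-1 than it was in KD-2, the widest gap of the 10 genes. Its exons share 68 bases with Mars on the opposite strand, and whether counting used the strand was not given in the sources used here. Mars, the methionyl-tRNA synthetase gene, was at -0.01 under KD-1 and -0.18 under KD-2. Reads in the shared bases were not tested.

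Trib3 encodes a pseudokinase that ATF4 and CHOP induce and that holds both in check. It lies on chromosome 2 from 152337422 to 152344032. Trib3 had 363 reads in control, 445 under KD-1 and 275 under KD-2. Its log2 fold change was 0.07 under KD-1 (-0.14 to 0.27) and -0.51 under KD-2 (-0.74 to -0.28), which did not pass 1.5-fold. The small value in KD-1 turned to slightly below 0 with DESeq2's size factors. In KD-2, Trib3 and Ddit3 were on opposite sides of control.

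**Figure D2:**
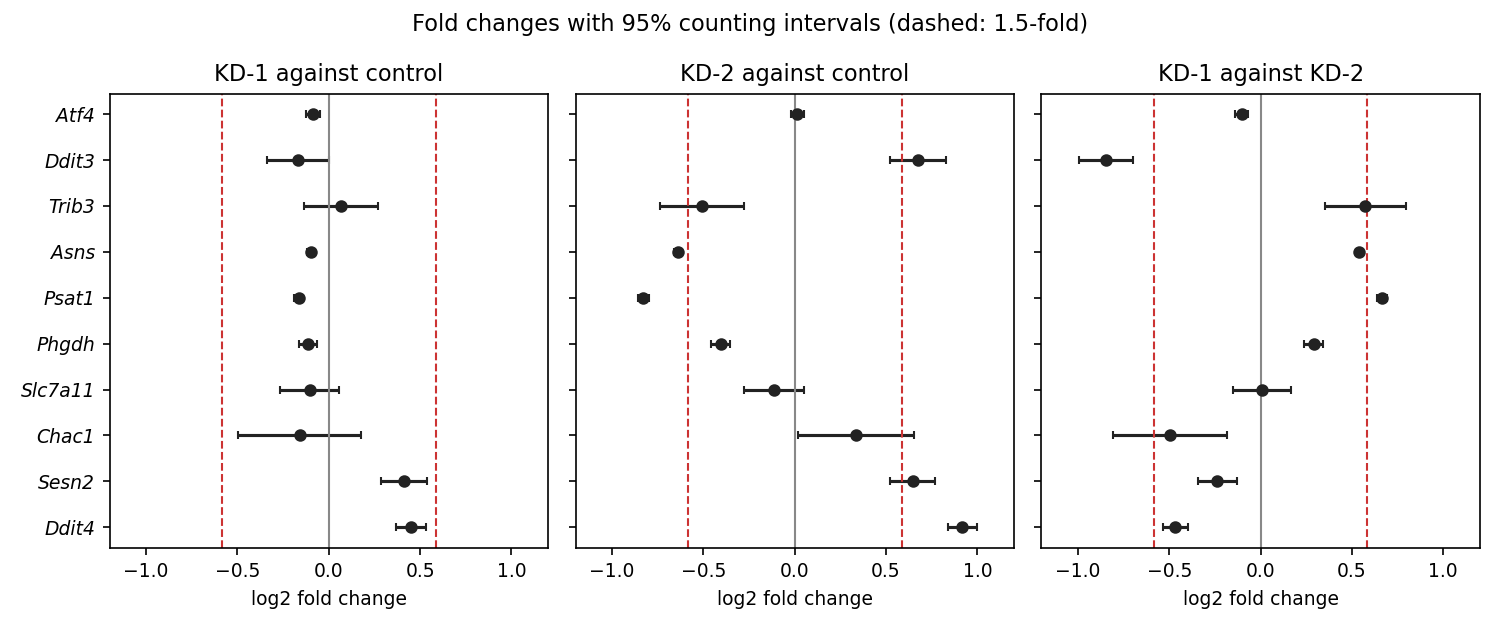
Log2 fold change of each of the 10 genes (points) with 95% counting intervals (bars) for KD-1 against control, KD-2 against control and KD-1 against KD-2; dashed lines mark 1.5-fold. Points in KD-1 stay within the dashed lines, from -0.17 to 0.45, while those in KD-2 run from -0.83 for Psat1 to 0.92 for Ddit4.

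Asns encodes asparagine synthetase. It lies on chromosome 6 from 7675169 to 7693254. Asns had 51870 reads in control, 56722 under KD-1 and 35849 under KD-2. After scaling this was 56169, 52424 and 36046 reads, a log2 fold change of -0.10 under KD-1 (-0.12 to -0.08) and of -0.64 under KD-2 (-0.66 to -0.62). The call in KD-2 rests on the scaling, since with library totals Asns was at -0.48 and did not pass 1.5-fold.

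Phgdh and Psat1 encode successive enzymes of serine synthesis from a glycolytic intermediate, phosphoglycerate dehydrogenase and phosphoserine aminotransferase. Psat1, at 15904678 to 15947337 on chromosome 19, had 24204 reads in control, 25296 under KD-1 and 14672 under KD-2. It was 1.78-fold lower in KD-2, at a log2 fold change of -0.83 (-0.86 to -0.80), and was at -0.16 in KD-1 (-0.19 to -0.14). Of all genes tested, 3.41% lay below Psat1 in KD-2. Phgdh, at 98313170 to 98339990 on chromosome 3, had 6444 reads in control, 6965 under KD-1 and 5237 under KD-2. Its log2 fold changes of -0.12 under KD-1 (-0.17 to -0.07) and -0.41 under KD-2 (-0.46 to -0.35) had the sign of those of Psat1, at a smaller size in KD-2.

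Slc7a11 encodes xCT, which imports cystine in exchange for glutamate and so feeds glutathione synthesis. It lies on chromosome 3 from 49892526 to 50443614. Slc7a11 had 617 reads in control, 672 under KD-1 and 615 under KD-2, or -0.11 on the log2 scale in both KD-1 (-0.27 to 0.05) and KD-2 (-0.28 to 0.05). Both intervals include 0, and the value in KD-2 turned to 0.05 with library totals.

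Chac1 encodes an enzyme that degrades glutathione and is induced by ATF4. It lies on chromosome 2 from 119351229 to 119354381. Chac1 had 145 reads in control, 152 under KD-1 and 197 under KD-2, the fewest of the 10 genes, which leaves wide intervals. The log2 fold change was -0.16 under KD-1 (-0.50 to 0.18) and 0.33 under KD-2 (0.02 to 0.65).

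Sesn2 and Ddit4 encode sestrin 2 and REDD1, both of which restrain the growth kinase complex mTORC1. Sesn2, at 132492032 to 132510501 on chromosome 4, had 863 reads in control, 1344 under KD-1 and 1455 under KD-2. Its log2 fold change was 0.41 under KD-1 (0.29 to 0.54) and 0.65 under KD-2 (0.52 to 0.77), where it was called higher. Ddit4, at 59949669 to 59951834 on chromosome 10, had 1927 reads in control, 3084 under KD-1 and 3916 under KD-2. It was at 0.45 in KD-1 (0.37 to 0.53) and was 1.89-fold higher in KD-2, at 0.92 (0.84 to 1.00). Both were above control in both knockdown libraries and higher in KD-2 than in KD-1, and the other 8 genes lacked a pair of positive values with intervals above 0. The share of all genes tested that had such a pair was not counted. Of all genes tested, 85.5% lay below Sesn2 in KD-1 and 85.5% in KD-2. For Ddit4 these shares were 87.1% and 93.1%.

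Ratios within a library do not depend on how libraries are scaled to each other. For every 1000 reads of Atf4, Psat1 had 2212 reads in control, 2097 under KD-1 and 1232 under KD-2, and Asns had 4740, 4703 and 3010. Ddit4 had 176, 256 and 329 reads per 1000 reads of Atf4, and Ddit3 had 51.3, 48.4 and 81.0. Relative to Atf4, KD-2 therefore held 55.7% of the Psat1 ratio of control and 187% of its Ddit4 ratio, and KD-1 held 94.8% and 145%.

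**Figure D3:**
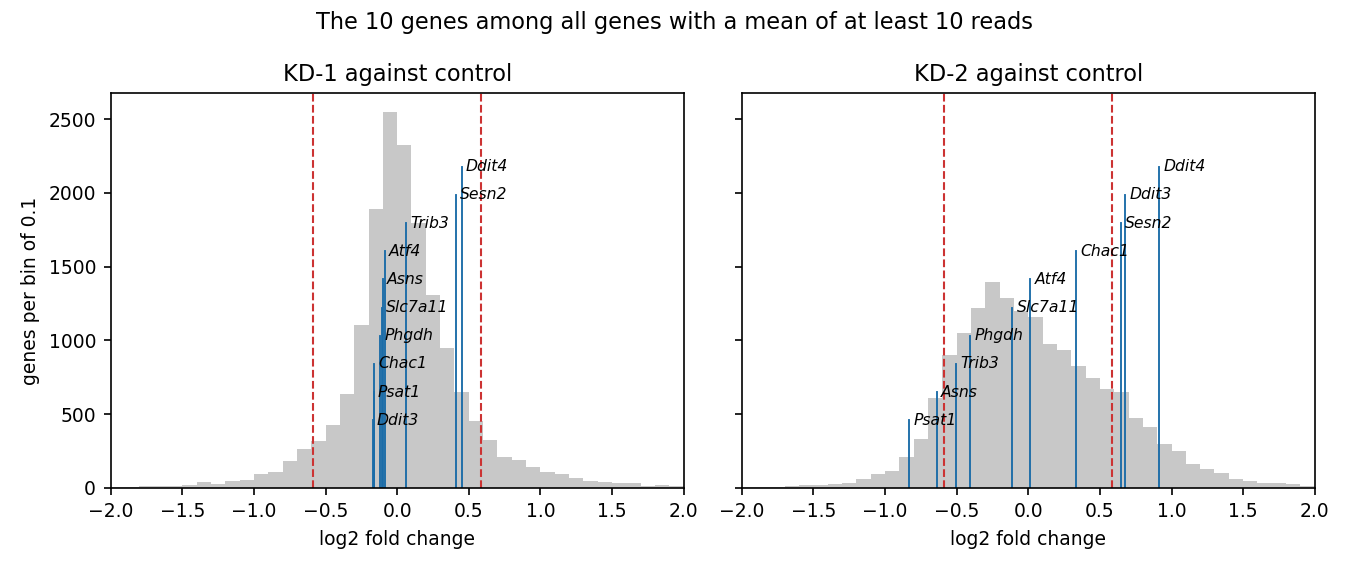
Distribution of log2 fold changes over the 16670 genes tested (grey bars, genes per bin of 0.1; values beyond 2 in either direction are not drawn) in KD-1 and KD-2 against control, with a labelled line for each of the 10 ISR genes and dashed lines at 1.5-fold. In KD-2, Psat1 and Asns lie left of the dashed lines, with 3.41% and 7.78% of genes below them, Trib3 follows with 14.4%, and Sesn2, Ddit3 and Ddit4 lie right of the lines, with 85.5%, 86.5% and 93.1% below them. In KD-1 all 10 lie between the lines.

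KD-1 and KD-2 were next compared directly, without the control library. Psat1 was called higher in KD-1 than in KD-2, at a log2 fold change of 0.66 (0.63 to 0.69), and Ddit3 was called lower, at -0.85, with an interval wholly beyond 1.5-fold. The background was 30.1% of genes called, 13.9% higher and 16.1% lower, against 1 of 10 members in each direction. Trib3 at 0.57 and Asns at 0.54 were just inside the threshold, and Chac1 was at -0.49 and Ddit4 at -0.47. Slc7a11 was at 0.01 (-0.15 to 0.17) and Atf4 at -0.10 (-0.14 to -0.07). The median was -0.05 over the 10 genes and 0.12 over all genes tested, and the call of Psat1 was lost with DESeq2's size factors, at 0.56, and with library totals, at 0.50.

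Both knockdown libraries were also tested as a group against control with edgeR's quasi-likelihood test, whose 1 residual degree of freedom comes from the spread between KD-1 and KD-2. They are set against the same control library, so that a sign they share is not an independent agreement. Of the 16670 genes, 1 was called at an adjusted p under 0.05 (0.006%), Mir6236, which is no ISR gene. None of the 10 members was called, 0 of them had an unadjusted p under 0.05 (211 genes in all did), and the Wald test of DESeq2 also gave 0 and 0. Ddit4 came nearest, with a log2 fold change of 0.70 (edgeR adjusted p = 1.00, unadjusted p = 0.105) and values above control in 2 of 2 libraries, followed by Sesn2 at 0.53 (adjusted p = 1.00, unadjusted p = 0.257). For Ddit3, Trib3, Chac1 and Atf4 the knockdown libraries had opposite signs against control. Only for Ddit3 did both counting intervals exclude 0, narrowly so in KD-1. The group values of Ddit3, Trib3 and Chac1, at 0.31, -0.19 and 0.11, describe neither library. That of Atf4, at -0.04, was close to both of its libraries.

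Promoters of ATF4 targets often carry a C/EBP-ATF response element with the core TGATGNAA. RefSeq windows on GRCm38.p6, from 250 bases before to 50 bases after each gene's start, were matched by symbol for 10 of 10 members (11 windows, as Psat1 has 2). Both windows of Psat1 lie inside the gene as annotated above, at 15925010 to 15925309 and 15924573 to 15924872, since that annotation holds a transcript with an earlier start, whose promoter was not searched. The core, or TTNCATCA, its form on the other strand, was found in 4 of them, Trib3, Chac1, Asns and Slc7a11. Counted by gene, 4.51% of all 27025 genes with a window held it, and 2.99% of the 12286 genes tested that have one. Counted by window, 4 of the 11 windows of members held it, beside 3.97% of all 32851 windows and 2.51% of the 15487 windows of genes tested. The matches are printed here with 11 bases on each side, 5′ to 3′ on the gene's strand with the core in capitals, to show which form each gene carries:
Asns, chr6:7693214-7693243, minus strand: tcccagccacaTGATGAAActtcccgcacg
Chac1, chr2:119351038-119351067, plus strand: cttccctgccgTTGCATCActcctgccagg
Slc7a11, chr3:50443661-50443690, minus strand: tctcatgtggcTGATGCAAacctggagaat
Slc7a11, chr3:50443642-50443671, minus strand: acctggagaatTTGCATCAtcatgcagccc
Trib3, chr2:152344028-152344057, minus strand: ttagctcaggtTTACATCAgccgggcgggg
Relative to the RefSeq starts, the core of Asns begins 23 bases before and that of Chac1 193 bases before. Those of Slc7a11 begin 66 and 47 bases before, on opposite strands and without overlap. The annotation above starts Asns earlier, so that its core, at 7693225 to 7693232, lies inside the gene as annotated there. In Trib3 it begins at base 15 after the start that RefSeq gives.

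The genes with the core lay on both sides of control. In KD-2 their log2 fold changes were -0.64 for Asns, -0.51 for Trib3, -0.11 for Slc7a11 and 0.33 for Chac1. Ddit4, Ddit3, Sesn2 and Psat1, which were past 1.5-fold in KD-2, had no match to these letters in their windows, which says nothing of elements elsewhere. The 250 bases before the start are printed for Asns, the most highly expressed member with the core, and for Ddit4, the member with the largest value in KD-2, so that both can be compared:
Asns, chr6:7693210-7693459, minus strand: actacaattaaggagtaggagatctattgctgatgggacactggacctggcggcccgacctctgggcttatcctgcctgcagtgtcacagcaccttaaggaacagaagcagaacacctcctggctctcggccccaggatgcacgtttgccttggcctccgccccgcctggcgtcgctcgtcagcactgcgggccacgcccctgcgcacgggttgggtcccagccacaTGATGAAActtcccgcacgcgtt
Ddit4, chr10:59951771-59952020, minus strand: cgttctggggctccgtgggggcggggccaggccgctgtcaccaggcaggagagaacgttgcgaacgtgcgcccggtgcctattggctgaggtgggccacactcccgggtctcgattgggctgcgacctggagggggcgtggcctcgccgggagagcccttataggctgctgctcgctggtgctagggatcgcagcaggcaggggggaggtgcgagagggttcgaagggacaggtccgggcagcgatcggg
Both printed stretches are set by RefSeq starts and overlap in part the genes as annotated above. The 300-base window of Ddit4 had a GC content of 69.0% and that of Asns 61.7%.

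The genes upstream of ATF4 were then examined. The eIF2 kinases are Eif2ak1 (HRI, heme), Eif2ak2 (PKR, double-stranded RNA), Eif2ak3 (PERK, unfolded proteins) and Eif2ak4 (GCN2, uncharged tRNA), each named with the signal it senses. Their log2 fold changes lay between -0.32 for Eif2ak2 and 0.18 for Eif2ak1 in KD-1, and between -0.17 for Eif2ak1 and -0.03 for Eif2ak4 in KD-2. Eif2s1, which encodes eIF2 alpha, had 35227 reads in control, 37599 under KD-1 and 24196 under KD-2. It was called lower in KD-2, at -0.65 (-0.67 to -0.63), the only one of the 7 genes of this list past 1.5-fold. The background in KD-2 was 27.3% of genes called, with 10.2% called lower, and 1 of 7 is not far from it. With library totals Eif2s1 was at -0.49, and 0 of the 7 were called. Ppp1r15a, which encodes GADD34, the stress-induced subunit of the eIF2 alpha phosphatase, was at -0.17 under KD-1 and 0.42 under KD-2. Of the 5 subunits of eIF2B, the exchange factor that phosphorylated eIF2 inhibits, 0 were called, with Eif2b3 at -0.58 and Eif2b1 at -0.39 in KD-2.

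Among other ATF4-linked factors, 6 of the 11 genes tested were called higher in KD-2 and 0 lower, beside a background of 17.1%, and the list's median was 0.60. With library totals 7 were called higher, Atf5 (named after its value was seen) among them at 0.64. In KD-1, 0 were higher and 1 was lower, with a median of -0.14. Cebpb, a bZIP partner of ATF4, had 143 reads in control, 228 under KD-1 and 947 under KD-2, and was 6.13-fold higher in KD-2. Gdf15, a secreted stress hormone, had 71 reads in control, 112 under KD-1 and 370 under KD-2, which is 2.27 in KD-2 on the log2 scale (1.90 to 2.66). Stbd1 was past 1.5-fold in both libraries in opposite directions, at -0.95 under KD-1 and 0.60 under KD-2. Atf3, Jdp2 and Vldlr, the others called higher in KD-2, were at 0.60, 1.10 and 0.62, and are named after their values were seen. Cebpb (unadjusted p = 0.00158) and Gdf15 (unadjusted p = 0.0133) were not called in the test of both knockdown libraries by edgeR after adjustment over all genes. The summed fibroblast markers, at 48.4% of control under KD-1 and 179% under KD-2, had the signs of this list's medians. In KD-1, however, 5 of the 11 genes were above control and 6 below. Those above included Cebpb at 0.44, Gdf15 at 0.43 and Atf3 at 0.17. The part of fibroblasts in this list's values was not tested.

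Further genes of amino acid supply were examined as lists. Of 20 cytosolic aminoacyl-tRNA synthetases, 3 were called lower and 0 higher in KD-2, and 19 of the 20 were below control, beside a background of 10.2% called lower. Of the 16670 genes tested, 8624 were below control in KD-2. The list's median was -0.38. Lars, for leucine, was at -0.68, Farsb, for phenylalanine, at -0.63 and Gars, for glycine and named after its value was seen, at -0.59. The call of Gars was lost with TMM, DESeq2's size factors and library totals. With library totals 0 of the 20 were called and 19 stayed below control, where the median was -0.22. In KD-1 the median was -0.06 and 0 of 20 were called. Of 13 other genes for serine, glycine, one-carbon and proline synthesis, 2 were called lower in KD-2, with a median of -0.35, and 12 were below control (11 with library totals). Shmt1, which makes glycine from serine in the cytosol, was at -0.79 in KD-2. Mthfd1l, a mitochondrial one-carbon enzyme, was the other gene called lower, at -0.61, and is named after its value was seen. Its call was lost with TMM, at -0.57, as well as with DESeq2's size factors and library totals. Aldh1l2 was called lower in KD-1, at -0.73. Among 9 amino acid transporters, Slc7a3, for cationic amino acids, was lower at -0.84 in KD-2, and Slc6a9, for glycine, and Slc1a4, for neutral amino acids (named after its value was seen), were higher at 1.08 and 0.66.

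These values for amino acid supply stood beside like values in genes outside of the ISR. Of 7 genes of glucose metabolism, the cytoskeleton and common reference use, 3 were called lower in KD-2 (2 with TMM or DESeq2's size factors and 1 with library totals), beside the background of 10.2%, and their median was -0.52. Pgk1, a glycolytic enzyme, was at -1.08, Hprt, of purine salvage, at -0.64 and Ppia, a prolyl isomerase named after its value was seen, at -0.62. The 12 pluripotency markers had a median of -0.30 in KD-2 and 0.15 in KD-1. In KD-2, 8 of them were below control and 4 above, and 2 were called lower (0 with library totals). Zfp42 was at -0.70, Tdgf1 at -0.61 and Dppa5a at -0.57 in KD-2. Utf1, named after its values were seen, was called higher in both libraries, at 0.69 and 1.17. The part of these shifts in the values of Asns, Psat1 and Phgdh was not tested.

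The IRE1 and ATF6 arms of the unfolded protein response, which run in parallel to PERK, had 0 of 17 genes called in KD-1 and 0 of 17 in KD-2. The background, in either direction, was 14.2% of all genes tested for KD-1 but 27.3% for KD-2. With library totals 1 of the 17, Herpud1, was called higher in KD-2, at 0.70. The medians were -0.06 and -0.08, and the widest values were 0.41 for Ern1 in KD-1 and 0.54 for Herpud1 in KD-2. Hspa5, the main chaperone of the endoplasmic reticulum, was at -0.23 under KD-1 and -0.21 under KD-2.

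Several members also respond to other pathways, and lists for these were set beside them. The background for their counts is 17.1% of all genes tested called higher and 10.2% called lower in KD-2, and 5.62% called lower in KD-1. Sesn2 and Ddit4 are known targets of p53, and of 9 other p53 targets 2 were called higher in KD-2, Bbc3 at 0.84 and Phlda3 at 0.69, with a median of 0.23. With TMM, DESeq2's size factors or library totals 3 were called, as Cdkn1a, a cell cycle inhibitor at 0.56 and named after its value was seen, then passed 1.5-fold. In KD-1, 0 of the 9 were called. Ddit4 is also a target of hypoxia-inducible factors, and of 10 hypoxia genes 3 were higher and 1 was lower in KD-2, with Vegfa at 0.99, Adm at 0.91, Car9 at 0.90 and Ankrd37 at -1.05. In KD-1, 3 were lower and 0 higher, namely Pdk1 at -0.92, Adm at -0.85 and Ankrd37 at -0.65. Car9 and Pdk1 are named after their values were seen. Slc7a11 is a target of NRF2, and of 7 NRF2 targets Hmox1 was higher at 1.16 and Gsr lower at -0.83 in KD-2, with a median of -0.03.

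**Figure D4:**
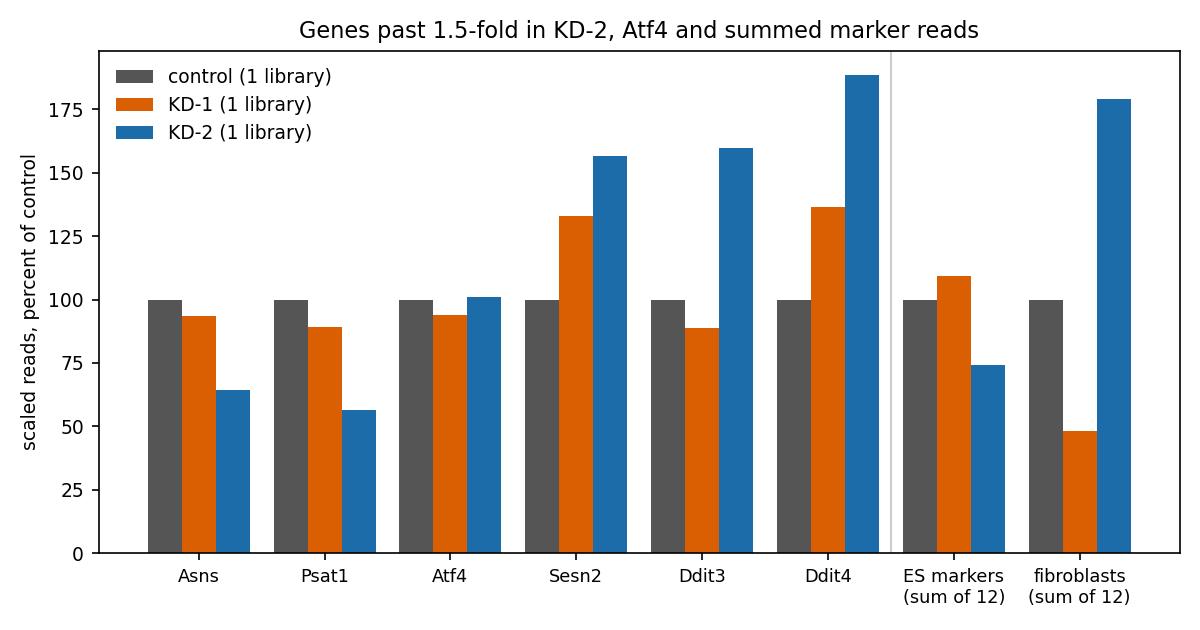
Scaled reads in percent of control (bars, 1 library each, axis from 0) for the 5 members past 1.5-fold in KD-2 and Atf4, and for the summed reads of 12 pluripotency and 12 fibroblast markers. The fibroblast sum stands at 48.4% under KD-1 and 179% under KD-2, and the pluripotency sum at 109% and 74.0%.

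Fibroblast markers differed between the libraries in opposite directions. All 12 were below control in KD-1, 7 of them called lower (9 with DESeq2's size factors) beside a background of 5.62%. All 12 were above control in KD-2, 10 of them called higher beside a background of 17.1%. In scaled reads their sum was 48.4% of control under KD-1 and 179% under KD-2, with Col3a1 at -1.33 and 0.96, Col6a1 at -0.62 and 0.78 and Fbn1 at -0.56 and 0.42 on the log2 scale. Ddit3, Chac1 and, at values near 0, Atf4 had the signs of the fibroblast markers in both libraries. The interval of Chac1 in KD-1 included 0. Trib3 had the opposite signs, at 0.07 in KD-1, with an interval that included 0, and -0.51 in KD-2. Sesn2 and Ddit4 were above control in KD-1 as well, where the fibroblast sum was less than in control. Asns, Psat1, Phgdh and, with intervals that included 0, Slc7a11 were below control in both libraries. Of 7 primitive endoderm markers tested, 1 was called higher under KD-1 and 3 under KD-2, beside 8.63% and 17.1% of all genes tested. These were Sox17 at 0.80 in KD-1 and Gata6, Pdgfra and Dab2 at 1.08, 0.68 and 0.63 in KD-2. The medians of the 7 were 0.22 and 0.30. Of the 7, 2 lay below control under KD-1 and 3 under KD-2. Lama1, which had the most reads of this list in control, was at 0.0051 in KD-1 but -0.44 in KD-2. Pdgfra is a fibroblast marker as well, and Sox17 and Gata6 are named after their values were seen. The part of feeder cells in the values of the ISR genes was not tested.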

How the data were processed

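RNA-Seq was performed on 1 control, 1 KD-1 and 1 KD-2 library. The authors trimmed reads with Trim Galore (0.4.1), mapped them with TopHat (2.1.1) to mm10 (GRCm38), and deposited raw read counts per gene. HTSeq is named in the submitters' processing notes and featureCounts in the methods, and the strand setting was not given in the sources used here. Summary lines that name no gene were left out. Reads outside of genes were 21.5% to 24.1% of all reads, and ambiguous ones 1.45% to 1.65%.

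Here, reads were scaled by the upper quartile (edgeR 4.0.16), and log2 fold changes used a pseudocount of 0.5 reads. Genes that averaged 10 reads or more were tested, and a fold change above 1.5 was called. The methods fix a dispersion from spike-in sequences. It was not used here, and no test was run on single libraries. Counting intervals (95%) are exact conditional binomial intervals and cover counting error only. Both knockdown libraries were tested against control with edgeR's quasi-likelihood test (glmQLFit, Benjamini-Hochberg adjustment) and, as an alternative, the Wald test of DESeq2 1.42.0. Where nothing says that cultures were separate, such p-values measure the spread between these libraries only. Scripts were tested on simulated data. Exon lengths and coordinates are from GENCODE M21 (GRCm38). Of the genes counted, 23376 matched it by symbol and 668 by a RefSeq synonym. Sequences are from RefSeq (GRCm38.p6).

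The members and gene lists were chosen with earlier results of these data known. From the other lists, genes past 1.5-fold in both knockdown libraries, the 2 that moved most and each eIF2 kinase were named, and from marker lists only the 3 with most reads in control, as well as others where stated. A few more (Pou5f1, Nanog, Mars, Hspa5) were named for their roles. Alternatives were TMM, DESeq2's size factors, library totals, a pseudocount of 5 reads, no minimum or a mean of 100 reads, 2-fold as the threshold, and a counting interval wholly beyond 1.5-fold. R 4.3.3, Python 3.11.15, scipy 1.17.1, pandas 2.3.3 and matplotlib 3.10.9 were used.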

Additional observations from a re-analysis of the deposited data

Results flagged for a closer look

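Ddit3 stood on opposite sides of control in the knockdown libraries, at -0.17 under KD-1 and 0.68 under KD-2 on the log2 scale. The counting interval in KD-1 ends close to 0. The difference was not tested, since each knockdown is 1 library and both share the control library.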

How the results depend on the processing

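With 1 library per group, no spread between cultures can be set beside these values, and depth limits mainly Chac1 and Trib3. In KD-1, 0 members were called under all of the alternatives. In KD-2, 3 members were called higher under each scaling, pseudocount and minimum. With a fold change above 2, 0 were called higher and 0 lower, and 1 member called higher (Ddit4) and 2 called lower (Psat1 and Asns) had an interval wholly beyond 1.5-fold. With library totals 1 member instead of 2 was called lower in KD-2, and the median of the members moved to 0.11, as that of all genes moved by 0.16. The medians of the eIF2 kinase list, the transporters, the IRE1 and ATF6 arms, NRF2 targets and hypoxia genes, all close to 0 in KD-2, turned positive with library totals. Between KD-1 and KD-2, 0 members were called higher with DESeq2's size factors, library totals or a fold change above 2. Called lower there were 2 with DESeq2's size factors, 3 with library totals and 0 with a fold change above 2, and the median was -0.15 with DESeq2's size factors and -0.21 with library totals, which shift the median of all genes by -0.10 and -0.17.

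In the test of both knockdown libraries, edgeR called 0 genes with DESeq2's size factors (123 at an unadjusted p under 0.05) and 2 with no minimum, and the Wald test of DESeq2 called 2 (Ipw and Taf7l). No alternative called a member, and the lowest unadjusted p of a member ran from 0.0793 with TMM to 0.126 with DESeq2. Leaving out either knockdown library gave log2 fold changes from -0.088 to 0.015 for Atf4, -0.17 to 0.68 for Ddit3, -0.51 to 0.065 for Trib3 and -0.16 to 0.33 for Chac1. The sign turned without KD-1 for Atf4 and without KD-2 for the other three. Causes were not tested. No paired analysis was possible because each group holds 1 library.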
